A study of Mus musculus with 12 samples.

Results

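Adrenergic signalling in the heart was followed through 10 genes: the receptor genes Adrb1, Adra1a and Adra1b, the adenylyl cyclases Adcy5 and Adcy6, the phosphodiesterases Pde3a, Pde4b and Pde4d, the protein kinase A (PKA) inhibitor Pkia and the receptor kinase Grk5. The members were every probe set annotated with exactly 1 of these symbols, which gave 21 of the 45101 probe sets on the array and 8 of the 10 genes. Adrb1 and Adra1a were not analysed here. Of the 21 probe sets, 14 passed a filter on dim signals and were tested, and they represent 7 genes. The 3 probe sets of Pde3a all lay below it.

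Noradrenaline and adrenaline act on the cardiac myocyte through 2 arms. Beta receptors couple through a stimulatory G protein to adenylyl cyclase, which makes cyclic AMP (cAMP). cAMP activates PKA, and PKA phosphorylates calcium channels and sarcomere proteins, so that the heart beats faster and more strongly. Alpha1 receptors couple to phospholipase C and protein kinase C, an arm long studied in cardiac growth. Phosphodiesterases break cAMP down, the PKI proteins block the catalytic subunit of PKA, and G protein-coupled receptor kinases phosphorylate active receptors so that they uncouple.

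The hearts were whole organs from CD1 mice, an outbred stock, and total RNA (500 ng per sample) was read on Affymetrix expression arrays. The 4 groups of 3 hearts each were DN-MCU adults, WT adults, DN-MCU neonates and WT neonates. Adults were 42 days old and labelled male, and neonates were 1 day old with their sex not known. DN-MCU stands for a dominant-negative MCU. MCU forms the pore through which calcium enters mitochondria, and a dominant-negative copy blocks the channels it joins. WT mice were littermates. The labels name neither the promoter that drives the transgene nor the founder line. The question put by the design is how the myocardial transcriptome differs when this calcium entry is inhibited, before and after the first weeks of life.

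All values are log2 signals as deposited, so a difference of 1 is a doubling of signal. Array medians lay between 3.24 and 3.46, and a probe set was kept if at least 3 of its 12 values exceeded 3.355, the median of all values. The Mcu probe set that differs between the genotypes (1442031_at) read 8.44 to 10.42 in the 6 DN-MCU hearts and 2.45 to 4.55 in the 6 WT hearts, in accord with the labels. The other Mcu probe set (1453166_at) read 7.39 to 8.18 over the 12 hearts and did not separate the genotypes. All 8 cardiomyocyte markers were kept, and their mean was 14.77 or more in every heart. DN-MCU adults scattered most, with a median SD of 0.400 per probe set, against 0.226 in WT adults, 0.141 in DN-MCU neonates and 0.132 in WT neonates. DN-MCU adult 3 stood apart, with a mean correlation of 0.931 with its group, against 0.957 or more for every other heart. Each comparison was therefore fitted with limma on the arrays it compares, over 24176 probe sets, and a gene passed at an adjusted p under 0.05. Levels of different genes are not compared, because each probe set has its own brightness.

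In adult hearts, 1 of the 7 tested genes rose with DN-MCU, the receptor kinase gene Grk5, and none fell. Over all 11807 genes tested, 0.483% passed as higher in DN-MCU adults and 0.0678% as lower. An unadjusted p under 0.05 was reached by 3 of the 7, Grk5 and, with lower signals, Adcy6 and Pkia, beside 10.9% of all genes. Pkia, the gene of the PKA inhibitor, was at 0.427 of its WT signal without passing. The cyclase and phosphodiesterase genes differed by -0.41 to 0.33 on the log2 scale and did not pass. The median over the 7 genes was -0.38, against 0.0023 over all genes. It includes Adra1b, whose adult signals all lay under the filter level.

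**Figure D1:**
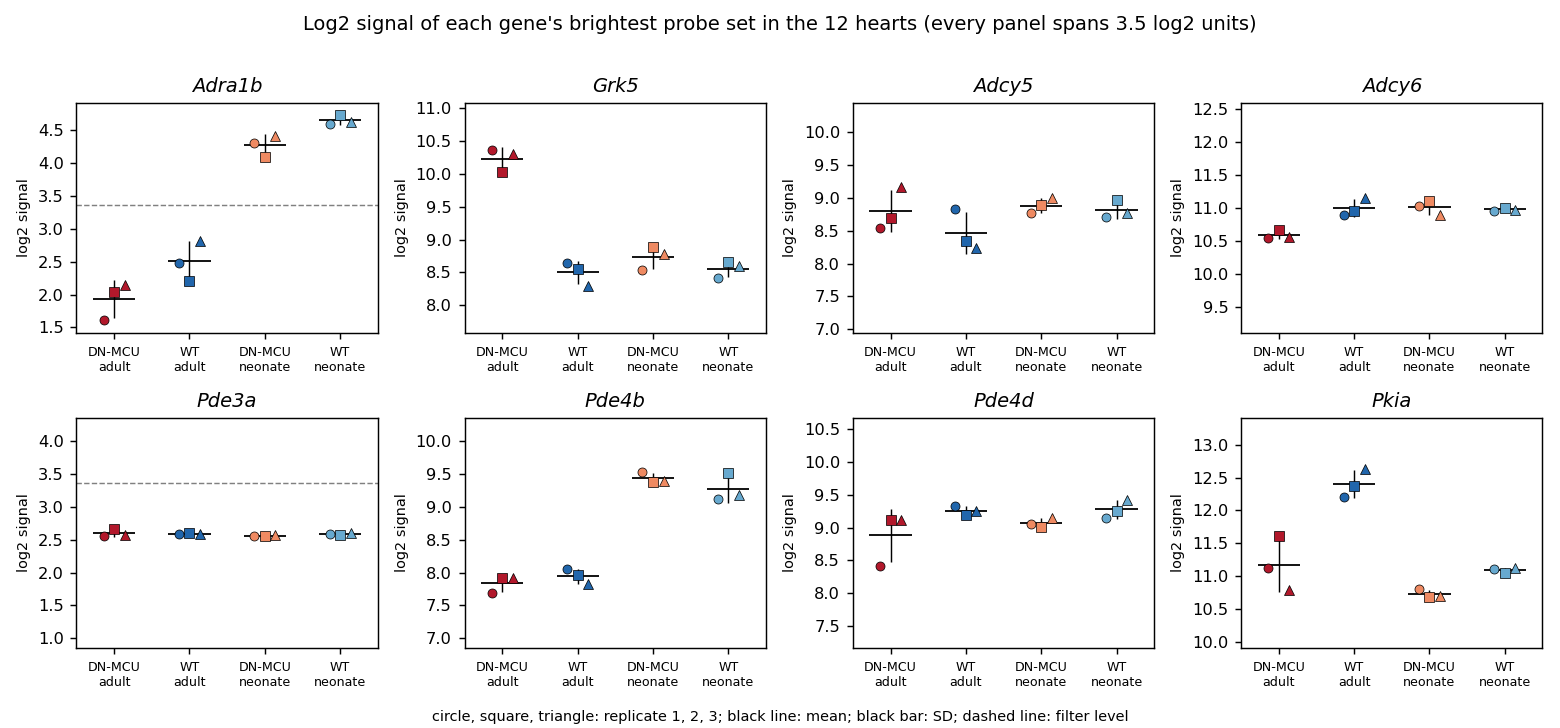
Log2 signal of the brightest probe set of each of the 8 genes with a probe set, in each of the 12 hearts, by group. Points are hearts, lines are means and bars are SDs of 3 hearts, and the dashed line is the filter level of 3.355. Grk5 stands above every other group in the 3 DN-MCU adults, and Pkia stands highest in the 3 WT adults.

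Grk5 encodes a membrane-bound kinase of G protein-coupled receptors that is abundant in heart. It phosphorylates agonist-occupied receptors, beta1 receptors among them, and in mouse heart it has also been found to enter the nucleus and act on a histone deacetylase during hypertrophy. Its brighter probe set (1449514_at) read 10.36, 10.03 and 10.30 in DN-MCU adults, against 8.64, 8.56 and 8.30 in WT adults. The groups did not overlap, and the gap between them was several times the spread within either. The log2 difference was 1.73 (SE 0.18), which is 3.32-fold (95% interval 2.44 to 4.52; limma adjusted p = 0.0296). The second probe set (1436672_at) read 7.35, 7.46 and 7.49 in DN-MCU adults, against 6.01, 5.77 and 6.17 in WT adults. Its log2 difference was 1.45 (SE 0.17), or 2.73-fold (95% interval 2.04 to 3.65; adjusted p = 0.0402).

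The size of the Grk5 difference did not rest on 1 heart, whereas its call depended on which heart was left out. Without any 1 adult heart the difference of the brighter probe set stayed between 1.63 and 1.83. Its adjusted p was 0.0453 without DN-MCU adult 3, the heart that stood apart. Without DN-MCU adult 1, DN-MCU adult 2, WT adult 1, WT adult 2 or WT adult 3 it was 0.142, 0.0672, 0.113, 0.187 and 0.194. For the second probe set the difference stayed between 1.34 and 1.54, with adjusted p between 0.0503 and 0.232.

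In neonatal hearts the Grk5 difference was smaller and did not pass. The brighter probe set read 8.54, 8.89 and 8.78 in DN-MCU neonates, against 8.42, 8.66 and 8.59 in WT neonates, and these ranges overlap. Same-numbered neonates were taken as pairs from correlations of their values, and no label documents such pairs. Within these assumed pairs the DN-MCU heart was higher in all 3, by 0.11, 0.22 and 0.19. With the pairs as a block the difference did not pass either (limma adjusted p = 0.536). At the second probe set the pairs differed by -0.16, 0.18 and -0.05 (adjusted p = 0.968 with the block). Without the block the log2 difference was 0.18 (SE 0.12, 95% interval -0.12 to 0.47, limma adjusted p = 0.78), and it was -0.01 (SE 0.09, 95% interval -0.24 to 0.21, adjusted p = 0.975) at the second probe set. The DN-MCU effect in adults minus that in neonates was itself tested. It was 1.55 (SE 0.22, adjusted p = 0.0113) at the brighter probe set and 1.46 (SE 0.19, adjusted p = 0.00819) at the second. This test passed for 1 of the 7 genes as higher and for 0 as lower, beside 0.711% and 0.237% of all genes (3 of the 7 had an unadjusted p under 0.05, beside 9.82% of all genes).

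The Grk5 probe sets differed in what they read across age. In WT hearts the brighter one read 8.50 ± 0.18 in adults and 8.56 ± 0.12 in neonates (SD, n = 3 each) and did not pass (log2 difference -0.06, SE 0.14, 95% interval -0.39 to 0.27, limma adjusted p = 0.74). The second fell to 5.98 ± 0.20 in adults, against 6.94 ± 0.05 in neonates (-0.96, SE 0.13, adjusted p = 0.00158). In DN-MCU hearts the brighter one rose to 10.23 ± 0.18 in adults, against 8.74 ± 0.18 in neonates (1.49, SE 0.18, adjusted p = 0.00197). The second was 7.43 ± 0.07 in DN-MCU adults and 6.93 ± 0.14 in DN-MCU neonates and did not pass (0.50, SE 0.16, adjusted p = 0.0516). At the brighter probe set the 3 other groups were therefore close together and the DN-MCU adults alone stood above them. At the second, the order of means was DN-MCU adults, the 2 neonatal groups with overlapping ranges, then WT adults.

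Grk5 is the member that passed with DN-MCU in adults, a call that depended on which heart was left out. The sequence before its listed start site is therefore shown, from RefSeq for the mouse build GRCm38.p6 (6 of the 10 genes have an entry in the table used). These are the 250 bases before the listed start site on the plus strand, chr19:60889499-60889748. The RefSeq gene itself begins at base 60889560, inside this window, so part of the stretch lies within the gene.
Grk5: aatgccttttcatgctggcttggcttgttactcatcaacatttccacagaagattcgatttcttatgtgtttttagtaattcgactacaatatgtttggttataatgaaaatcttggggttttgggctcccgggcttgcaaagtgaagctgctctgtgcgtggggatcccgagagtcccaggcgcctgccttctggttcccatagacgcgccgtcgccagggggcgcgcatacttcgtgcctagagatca
No letters are in capitals because none of the 3 motifs searched on both strands lies in this window. They were the full cAMP response element TGACGTCA (1.55% of 32851 promoters of this length), its shorter core TGACG (17.8%, which also counts every full element) and the C/EBP-ATF element TGATGCAA (0.791%).

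Among the 11806 other genes, the profiles nearest to that of Grk5 over the 12 hearts were those of Lonp1, Rhbdd1 and Slc7a1. Likeness was the root mean square difference of log2 values after each gene was centred on its own mean, and it was 0.161, 0.175 and 0.225, against a median of 0.87 over all genes. Lonp1 encodes a protease of the mitochondrial matrix, Rhbdd1 an intramembrane protease and Slc7a1 a transporter of cationic amino acids. Their adult log2 differences were 1.68 (SE 0.21, limma adjusted p = 0.0433), 1.69 (SE 0.23, adjusted p = 0.0605) and 1.53 (SE 0.23, adjusted p = 0.0737). They were picked for this likeness, so these values describe them and add no support.

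Pkia encodes the alpha form of the PKA inhibitor, a small protein that occupies the substrate site of the catalytic subunit and helps carry it out of the nucleus. Its brighter probe set (1420859_at) read 11.13, 11.61 and 10.79 in DN-MCU adults, against 12.21, 12.37 and 12.64 in WT adults. No DN-MCU adult reached a WT adult. The log2 difference was -1.23 (SE 0.26, 95% interval -1.86 to -0.60), which did not pass (limma adjusted p = 0.151; unadjusted p = 0.00307). The second probe set (1420858_at) read 7.98, 8.58 and 7.23 in DN-MCU adults, against 9.20, 9.80 and 9.66 in WT adults. Its difference was -1.63 (SE 0.38, 95% interval -2.55 to -0.70, adjusted p = 0.193). With all 12 arrays in 1 fit, where the spread is shared with the less variable neonates, both probe sets passed (adjusted p = 0.00514 and 0.0224). The median SD of the adults compared is larger, as given above.

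The Pkia signal in WT hearts was higher in adults than at birth. The brighter probe set was 12.40 ± 0.22 in WT adults and 11.09 ± 0.04 in WT neonates (SD, n = 3 each), a log2 difference of 1.31 (SE 0.14, adjusted p = 0.000506), and the second differed by 2.36 (SE 0.27, adjusted p = 0.000698). In DN-MCU hearts it was 11.17 ± 0.41 in adults and 10.73 ± 0.07 in neonates and did not pass (0.45, SE 0.24, adjusted p = 0.191). Without DN-MCU adult 3 that difference was 0.64 and passed (adjusted p = 0.0251). The difference between the age effects, which is also the difference of the DN-MCU effects, was -0.87 (SE 0.28, adjusted p = 0.286) and did not pass. In neonates the brighter probe set read 10.81, 10.68 and 10.70 with DN-MCU, against 11.11, 11.05 and 11.12 in WT hearts. These groups did not overlap either, and the difference of -0.36 (SE 0.07) did not pass (adjusted p = 0.47). The second probe set overlapped there, at -0.20 (SE 0.25, adjusted p = 0.881). The order of means was WT adults, DN-MCU adults, WT neonates and DN-MCU neonates. The range of DN-MCU adults overlaps those of both neonatal groups, which do not overlap each other.

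**Figure D2:**
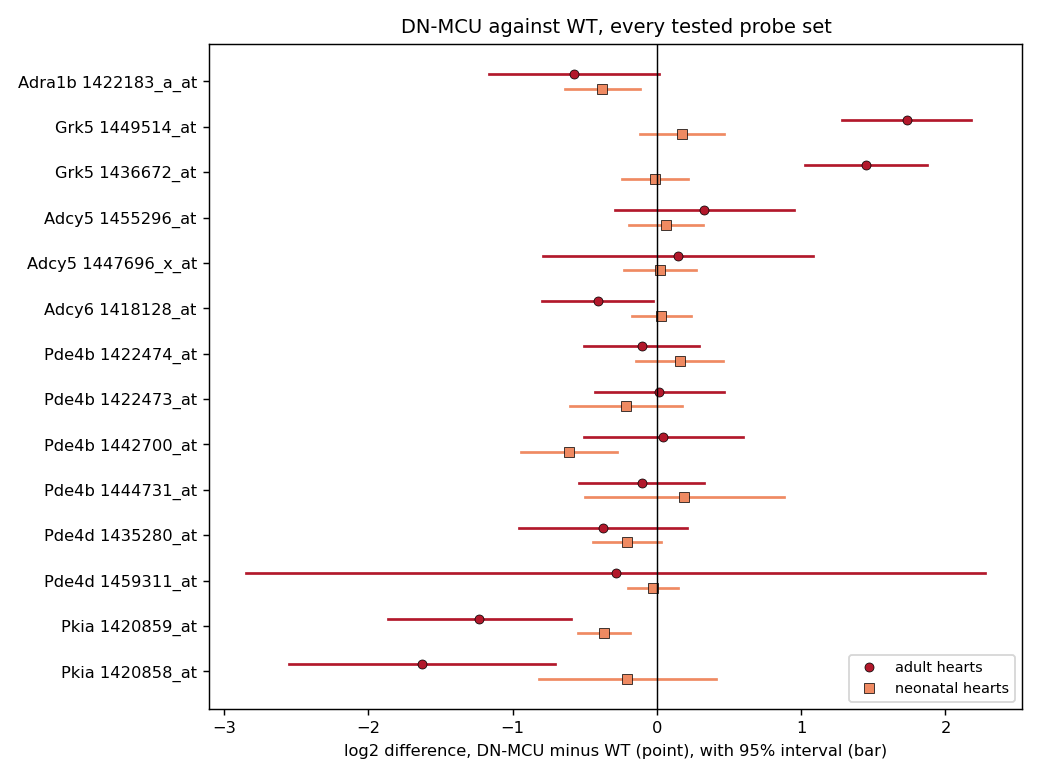
Log2 difference between DN-MCU and WT hearts for each of the 14 tested probe sets, in adults (circles) and neonates (squares), with 95% intervals from limma. In adults both Grk5 intervals lie above 0 and both Pkia intervals lie below it; Grk5 alone passed adjustment over all probe sets.

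Adcy5 and Adcy6 encode the calcium-inhibited adenylyl cyclases that dominate in cardiac myocytes. Adcy6 read 10.54, 10.66 and 10.56 in DN-MCU adults, against 10.89, 10.95 and 11.15 in WT adults. The groups did not overlap, but the log2 difference of -0.41 (SE 0.16, 95% interval -0.79 to -0.03) did not pass (limma adjusted p = 0.449). In neonates Adcy6 differed by 0.03 (SE 0.08, 95% interval -0.17 to 0.24, adjusted p = 0.945), and the difference of effects did not pass (-0.44, SE 0.17, adjusted p = 0.426). Across age in WT hearts it differed by 0.02 (SE 0.11, 95% interval -0.26 to 0.30, adjusted p = 0.892), with a sign that turned when array medians were subtracted. In DN-MCU hearts every adult lay below every neonate, and the difference of -0.42 (SE 0.15, limma adjusted p = 0.0776) did not pass. Its adjusted p lay between 0.0377 and 0.228 without 1 heart, and between 0.0111 and 0.2 with other processing.

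The brighter Adcy5 probe set (1455296_at) read 8.54, 8.69 and 9.16 in DN-MCU adults, against 8.83, 8.35 and 8.23 in WT adults, and the ranges overlapped. The difference was 0.33 (SE 0.25, 95% interval -0.29 to 0.95, adjusted p = 0.762). The fainter tested one (1447696_x_at) differed by 0.15 (SE 0.38, adjusted p = 0.947), and its SD in DN-MCU adults was 0.76, with DN-MCU adult 3 highest at 7.55. The neonatal differences were 0.06 (SE 0.11) and 0.02 (SE 0.10), with adjusted p = 0.912 and 0.969. The other 2 Adcy5 probe sets lay between 1.68 and 2.26 in all hearts and were not tested. Across age in WT hearts the brighter probe set differed by -0.35 (SE 0.18, limma adjusted p = 0.159) and the fainter by 0.06 (SE 0.11, adjusted p = 0.689). Neither passed. For the gene, the adjusted p of this age difference lay between 0.0128 and 0.367 without 1 heart, and between 0.00595 and 0.419 with other processing. The ranges of the 4 groups overlap for Adcy5, so they have no order.

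Pde4b and Pde4d encode cAMP-specific phosphodiesterases that shape cAMP near receptors and calcium channels in the myocyte, and Pde3a encodes a phosphodiesterase that cyclic GMP inhibits. None passed with DN-MCU at either age. The brightest Pde4b probe set (1422474_at) differed by -0.11 (SE 0.16, 95% interval -0.50 to 0.29, limma adjusted p = 0.895) in adults and by 0.16 (SE 0.13, 95% interval -0.15 to 0.46, adjusted p = 0.807) in neonates. The main Pde4d probe set (1435280_at) read 8.41, 9.11 and 9.12 in DN-MCU adults, against 9.33, 9.19 and 9.25 in WT adults. It was lower in every DN-MCU adult, mostly through DN-MCU adult 1. The difference was -0.38 (SE 0.24, 95% interval -0.96 to 0.21, adjusted p = 0.685), and -0.14 without that heart. In neonates it was -0.21 (SE 0.10, adjusted p = 0.71), again with no overlap.

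The second Pde4d probe set (1459311_at) was uneven among adults. It read 4.20, 5.50 and 2.82 in DN-MCU adults and 3.01, 3.93 and 6.44 in WT adults, while all 6 neonates lay between 2.67 and 2.79. It was kept by the filter only because of adults that were bright. The 3 probe sets of Pde3a lay between 2.27 and 3.00 in all hearts, under the filter level, so no change of Pde3a could be measured.

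The probe sets of Pde4b parted by age. In WT hearts 1422474_at read 8.05, 7.96 and 7.82 in adults, against 9.12, 9.52 and 9.18 in neonates. It fell in adults, by a log2 difference of -1.33 (SE 0.15, limma adjusted p = 0.000616). Probe set 1422473_at fell by a similar amount (-1.34, SE 0.15, adjusted p = 0.000572). Another, 1444731_at, fell by 1.45 on the log2 scale (SE 0.10), with adult signals near the filter level. In contrast, 1442700_at read 7.40, 7.53 and 7.36 in WT adults, against 4.70, 4.25 and 4.36 in WT neonates. It was 7.96-fold higher in adults (log2 difference 2.99, SE 0.15, adjusted p = 3.11e-05).

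The same split held in DN-MCU hearts, which are other animals. There 1422474_at differed by -1.59 (SE 0.16, adjusted p = 0.000991) and 1442700_at by 3.65 (SE 0.23, adjusted p = 0.000215) between adults and neonates. With DN-MCU, 1442700_at read 3.87, 3.71 and 3.91 in neonates, below all WT neonates, and this difference did not pass (-0.61, SE 0.14, adjusted p = 0.489). In adults it differed by 0.04 (SE 0.23, adjusted p = 0.978). A mean over the 4 tested Pde4b probe sets mixes both directions: it differed by -0.28 between WT adults and WT neonates (adjusted p = 0.0473) and by -0.20 between DN-MCU adults and DN-MCU neonates, where the call was lost (adjusted p = 0.333).

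**Figure D3:**
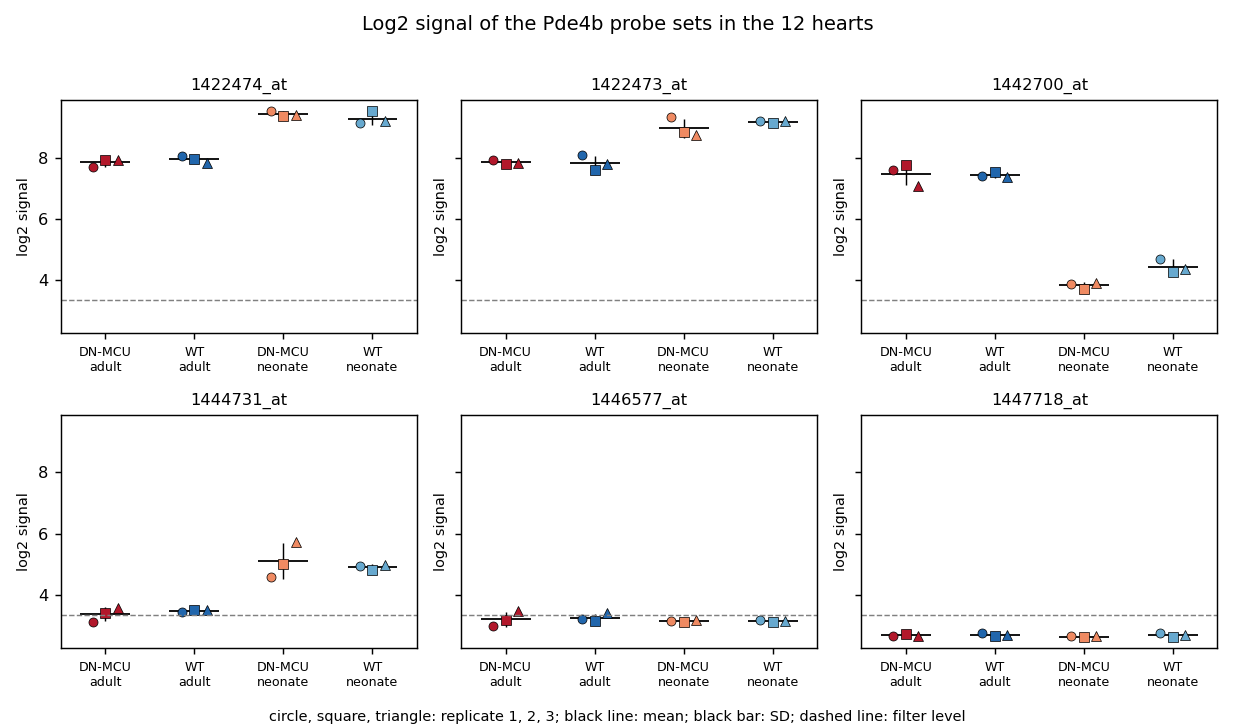
Log2 signal of the 6 Pde4b probe sets in each of the 12 hearts, by group. Points are hearts, lines are means and bars are SDs of 3 hearts, and the dashed line is the filter level of 3.355. The probe sets 1422474_at, 1422473_at and 1444731_at are lower in adults and 1442700_at is higher, while the last 2 stay near or under the filter level.

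No source used here gives the part of a Pde4b transcript that each probe set matches, so the split was not assigned to an isoform. Pde4b is a gene with several starts, and the RefSeq promoters used here cover 4 of them in GRCm38.p6. The RefSeq gene begins further upstream, at base 102087332, and the bases before that point were not searched. Of the 4 starts, 1 has a searched motif in the 250 bases before it. That stretch is shown with the motif in capitals (chr4:102421305-102421554, plus strand).
Pde4b: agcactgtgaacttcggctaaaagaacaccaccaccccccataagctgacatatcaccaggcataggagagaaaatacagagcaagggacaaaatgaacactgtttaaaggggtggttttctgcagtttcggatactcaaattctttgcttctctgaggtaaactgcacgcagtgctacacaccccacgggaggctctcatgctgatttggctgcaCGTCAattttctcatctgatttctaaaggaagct
The capitals are TGACG, the core of the cAMP response element, read on the opposite strand. The match describes the sequence and shows no binding.

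Adra1b encodes an alpha1 receptor that signals through phospholipase C. Its 1 probe set was kept only through the neonates. It read 4.31, 4.09 and 4.42 in DN-MCU neonates, against 4.59, 4.72 and 4.63 in WT neonates, with no overlap. The log2 difference was -0.38 (SE 0.11, 95% interval -0.64 to -0.12) and did not pass (limma adjusted p = 0.57). In adults it read 1.61, 2.04 and 2.14 with DN-MCU and 2.48, 2.21 and 2.82 in WT hearts, all under the filter level. The adult difference of -0.57 (SE 0.24, adjusted p = 0.496) is therefore between signals near background. WT adults were lower than WT neonates by -2.14 (SE 0.17, adjusted p = 0.000175), a difference that the way it passed the filter had to give.

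Leaving aside Adra1b, whose age difference the filter had to give, Pkia was higher and Pde4b lower in WT adults than in WT neonates. Adults were male and the sex of the neonates is not given, so age and sex cannot be told apart here. Over all genes, 19.8% were higher and 32.4% lower in WT adults than in WT neonates. In DN-MCU hearts Grk5 was higher and Pde4b lower in adults, beside 12.7% and 20.8% of all genes. Against shares this high, these counts are not a result about the members. With DN-MCU in neonates 0 of the 7 genes passed, and 0% of all genes did (1 of 24176 probe sets passed in limma, with 1758 at an unadjusted p under 0.05; 2 of the 7 genes, Adra1b and Pkia, were among these, as were 8% of all genes). The groups did not overlap for 5 of the 7 genes in adults (Grk5 higher, and Pkia, Adcy6, Pde4d and Adra1b lower), beside 18.4% of all genes. Of these, Adra1b lay under the filter level in every adult, so its adult difference is between signals near background. They did not overlap for 3 in neonates (Pkia, Pde4d and Adra1b, all lower), beside 13.9%. The genes were chosen with earlier results of these data known, so these shares are a description.

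The rest of the pathway was read in 12 lists, of which 11 had genes that could be tested, 102 genes in all. In limma 0 passed with DN-MCU in adults, 0 in neonates and 0 in the difference of effects, with 11, 10 and 14 of the 102 at an unadjusted p under 0.05. Over all genes, 10.9%, 8% and 9.82% had such a p in these comparisons. With all 12 arrays in 1 fit, 6 of the 102 passed in adults and 0 in neonates, beside 5.11% and 0.0254% of all genes. Their median adult difference was -0.07, against 0.0023 for all genes. Across age, 24 were higher and 27 lower in WT adults than in WT neonates, beside 19.8% and 32.4% of all genes. In DN-MCU adults 17 were higher and 14 lower than in DN-MCU neonates, beside 12.7% and 20.8% of all genes. Against shares this high, these counts are not a result about the pathway. The genes named next are those with the smallest p of each list, and none of them passed.

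In the list of receptor kinases, arrestins and RGS proteins (9 tested), Rgs6, which shortens G protein signals, read 5.66, 5.45 and 6.00 in DN-MCU adults, against 4.31, 4.61 and 4.53 in WT adults (1.22, SE 0.20, limma adjusted p = 0.091). Grk3, a receptor kinase recruited by G protein beta-gamma subunits, read 7.51, 7.58 and 7.07 in DN-MCU adults, against 8.21, 8.20 and 8.18 in WT adults (-0.81, SE 0.19, adjusted p = 0.2). Neither gene's groups overlapped, and Grk3 lay on the other side of WT from Grk5. The list median was 0.10. Arrb1, an arrestin, had the smallest p of this list in neonates (0.51, SE 0.20, adjusted p = 0.679).

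Among 4 tested genes of catecholamine synthesis and clearance, Dbh, the enzyme that makes noradrenaline from dopamine, read 4.61, 4.93 and 5.40 in DN-MCU adults, against 6.58, 6.78 and 6.52 in WT adults (-1.65, SE 0.24, adjusted p = 0.0668). Ddc, the decarboxylase that makes dopamine, read 5.23, 5.45 and 5.11 in DN-MCU adults, against 7.78, 7.06 and 6.47 in WT adults (-1.84, SE 0.35, adjusted p = 0.12). Both were lower in every DN-MCU adult than in any WT adult. The list median of -0.94 rests on 4 genes, these 2 among them, and describes no common direction. Slc18a2, the vesicular monoamine transporter, averaged 3.24 ± 0.59 in DN-MCU adults and 3.07 ± 0.24 in WT adults, with overlapping ranges around the filter level. In neonates the smallest p of this list was that of Slc18a2. It read 4.32, 3.70 and 3.95 in DN-MCU neonates and 4.25, 4.68 and 5.16 in WT neonates (-0.70, SE 0.26, adjusted p = 0.66), and these ranges overlap. Dbh and Ddc differed there by -0.17 (SE 0.19) and 0.04 (SE 0.25), with adjusted p = 0.864 and 0.973. The Schwann cell markers, which cardiac nerves bring with them, averaged 3.89 to 4.84 in DN-MCU adults and 3.76 to 5.16 in WT adults, with 3 of 5 markers measured and overlapping ranges. In neonates 2 of these 3, Sox10 and Cdh19, were lower in every DN-MCU heart than in any WT heart, beside 13.9% of all genes without overlap. Neonatal Cdh19 lay under the filter level in all hearts, at 2.81 to 2.83 with DN-MCU and 2.86 to 2.89 in WT hearts. Sox10 lay little above it, at 3.80 to 3.85 and 3.87 to 4.09. The part of these markers in the neonatal values was not tested.

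Within PKA itself (8 tested subunits and inhibitors, median -0.09), the regulatory subunit Prkar1b read 6.13, 6.19 and 7.52 in DN-MCU adults, against 5.69, 5.30 and 5.47 in WT adults (1.13, SE 0.40, adjusted p = 0.421). The regulatory subunit Prkar2a differed by -0.36 (SE 0.15, adjusted p = 0.484). Of 11 A-kinase anchoring proteins (median -0.22), Akap10 had the smallest adult p (0.37, SE 0.15, adjusted p = 0.486). Of 4 tested cAMP effectors outside PKA (median 0.13), Popdc3, a cAMP-binding membrane protein, differed by 0.83 (SE 0.34, adjusted p = 0.482).

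The 6 other tested cyclases had a median of -0.07, with Adcy1 at -0.60 (SE 0.25, adjusted p = 0.495) in adults and Adcy7 at 0.50 (SE 0.14, adjusted p = 0.573) in neonates. The 9 other tested phosphodiesterases had a median of -0.19, with Pde1c, which calcium and calmodulin activate, at 0.49 (SE 0.43, adjusted p = 0.798). The 13 G protein subunits had a median of 0.14, with Gna13 at 0.47 (SE 0.20, adjusted p = 0.499). The 13 tested PKA substrates and phosphatase regulators had a median of -0.17. Of these Ryr2, the calcium release channel, differed by -0.35 (SE 0.20, adjusted p = 0.628). The list of other adrenergic receptors held no gene that could be tested.

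Downstream, the 14 tested CREB-responsive transcripts had a median of 0.10 and values on both sides of 0. Sik1, a kinase that curbs CREB coactivators, read 7.86, 8.27 and 7.88 in DN-MCU adults, against 7.31, 7.18 and 6.98 in WT adults (0.85, SE 0.19, adjusted p = 0.185). The nuclear receptor Nr4a3 differed by -1.71 (SE 0.49, adjusted p = 0.286). Fos, an early response gene, was uneven, at 9.02, 10.80 and 8.55 in DN-MCU adults and 9.18, 7.85 and 5.90 in WT adults (1.81, SE 0.96, adjusted p = 0.611). It was lower in all DN-MCU neonates than in WT neonates without passing (-0.98, SE 0.22, adjusted p = 0.489). In neonates Sik1 differed by -0.78 (SE 0.29, adjusted p = 0.651), and the difference of its effects was 1.63 (SE 0.37, adjusted p = 0.0923). Of the 11 tested alpha1 effectors (median -0.24), Prkcd, protein kinase C delta, read 8.54, 7.84 and 8.22 in DN-MCU adults, against 6.95, 6.92 and 7.07 in WT adults (1.22, SE 0.22, adjusted p = 0.104).

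**Figure D4:**
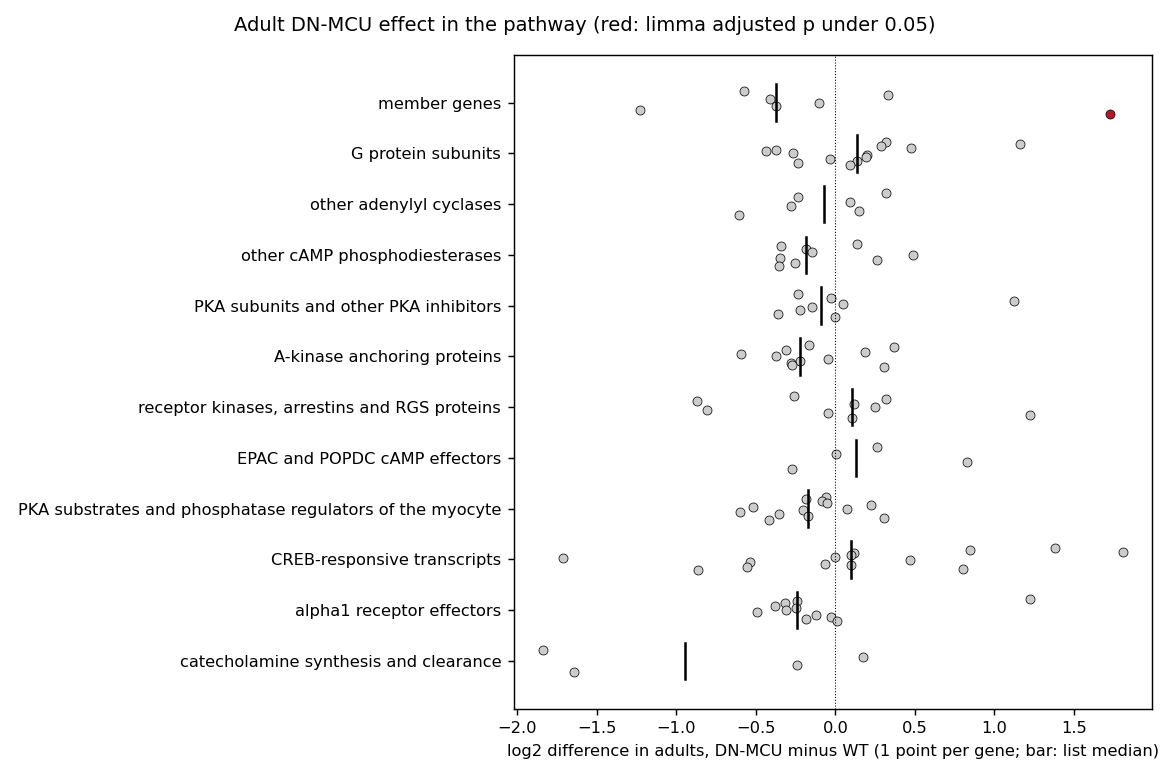
Log2 difference between DN-MCU and WT adults for the 7 tested member genes and the genes of 11 pathway lists, 1 point per gene, with the list median as a bar. Red marks an adjusted p under 0.05 in limma, which Grk5 alone reached; Rgs6 at 1.22 and Prkcd at 1.22 lie to the right and Dbh at -1.65, Nr4a3 at -1.71 and Ddc at -1.84 to the left, all without passing; the gene at the right end of the CREB list is Fos (1.81).

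In bulk tissue, fewer cells of a type and less RNA per cell cannot be told apart, so markers of the cells a heart holds were read beside these genes. Of 49 marker genes of 10 cell types, limma passed 0 with DN-MCU in adults and 0 in neonates. An unadjusted p under 0.05 was reached by 3 in adults and 9 in neonates, beside 10.9% and 8% of all genes. The fit of 12 arrays passed 0 at either age, beside 5.11% and 0.0254% of all genes. Beside the counts without overlap given below, the groups did not overlap for 18.4% of all genes in adults and 13.9% in neonates. In adults the mean of the 8 cardiomyocyte markers was 15.12 to 15.20 with DN-MCU and 15.18 to 15.31 in WT hearts, a difference of -0.11. The 5 atrial markers went both ways in adults: Nppa and Myl4 were higher in every DN-MCU adult, Sln and Myl7 were lower in every DN-MCU adult, and Bmp10 overlapped. Their mean, 11.90 to 11.93 in DN-MCU adults against 12.21 to 12.23 in WT adults, therefore describes no common direction. In neonates 2 of the 5, Sln and Bmp10, were lower without overlap, and the mean was 10.97 to 11.94 in DN-MCU neonates and 12.05 to 12.34 in WT neonates. Of the 6 endothelial markers, Tie1 and Tek were lower in every DN-MCU adult and the other 4 overlapped, with means of 8.78 to 9.02 in DN-MCU adults and 9.14 to 9.19 in WT adults. In neonates the endothelial markers went both ways: Tie1 and Tek were lower and Pecam1 was higher in every DN-MCU heart. The cardiomyocyte marker Myl3 and the fibroblast marker Pdgfra were also lower in every DN-MCU adult, and the macrophage marker Adgre1 was higher. Of the 5 epicardial markers, 4 were lower in every DN-MCU neonate, with means of 6.79 to 7.16 in DN-MCU neonates and 7.52 to 8.24 in WT neonates. The 6 macrophage markers averaged 6.47 to 6.57 in DN-MCU neonates and 6.68 to 6.89 in WT neonates, with 2 of the 6 lower without overlap. The 3 erythroid markers measured averaged 5.78 to 6.23 in DN-MCU neonates and 6.27 to 7.10 in WT neonates, with 1 of the 3, Alas2, lower without overlap. Another, Hba-a1, lay under the filter level in every heart, so this mean includes a signal near background. These values stand beside the adult Grk5, Pkia, Adcy6 and Pde4d signals and the neonatal Pkia, Pde4d and Adra1b signals. Their part in these values was not tested.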

How the data were processed

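Whole hearts (12, in 4 groups of 3) were profiled, and the authors deposited 1 table of normalized log2 signals per probe set. That they are log2 follows from their range, and the normalization method is not stated in the labels. The submitters' processing notes name the tool Partek but neither its version nor its role.

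Genes come from GEO's platform annotation, in which 34958 probe sets have 1 gene, 932 several and 9160 none. Without the 64 control features, 24176 probe sets had at least 3 values above the median of all values and were kept. A gene stands for its brightest kept probe set over all 12 arrays (11807 genes). Each of 5 comparisons was fitted with limma 3.58.1 in R 4.3.3 on the arrays of its own groups, with Benjamini-Hochberg adjustment over all kept probe sets. With equal groups, the spread pooled over exactly these groups is the one a comparison needs. Age and genotype comparisons share hearts. The hearts are labelled as biological replicates, 3 a group, which limits precision. Fits were tested on simulated data.

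The members, lists and design were chosen with earlier results of these data known. Named genes are all members, and of each list those that passed or, where none did, the 2 with the smallest p per comparison, not all of which are printed; for the member that passed in adults, the 3 most similar profiles are named.

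The labels number replicates 1 to 3 in each group. Deviations of same-numbered DN-MCU and WT neonates correlated at 0.133, 0.223 and 0.283, all above 0.1, so the neonatal numbers were taken to pair hearts, although no label explains what a number marks. Differently numbered neonates correlated at -0.292 to 0.0902, so the margin is small. This pairing was read from the same values that the blocked fits use, and it is not documented. For same-numbered adults the correlations were -0.381, 0.410 and -0.428, so the adult numbers were not taken to pair hearts. Differently numbered adults reached 0.579.

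Alternatives tried were subtracting array medians, quantile normalization, a stricter filter (log2 6) or none, 1 fit of all 12 arrays, array weights, robust moderation, the mean of a gene's probe sets, leaving out probe sets that can cross-match, a replicate block and leaving out each heart.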

Additional observations from a re-analysis of the deposited data

Results flagged for a closer look

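The DN-MCU effect on Grk5 differed between adults and neonates, and this difference was tested itself. It was 1.55 at probe set 1449514_at (SE 0.22, limma adjusted p = 0.0113) and 1.46 at probe set 1436672_at (SE 0.19, adjusted p = 0.00819). When neonates were blocked by replicate number, a fit added after seeing the data, the adjusted p was 0.036 and 0.041. Without any 1 of the 12 hearts the first stayed between 1.45 and 1.65, with adjusted p between 0.00869 and 0.0459.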

How the results depend on the processing

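The Grk5 call in adults held in the brighter probe set under both scalings, both filters, robust moderation and either choice of probe sets. With the replicate number as a block it was lost in adults, whose numbers were not taken to pair hearts (difference 1.73, adjusted p = 0.253). So was the difference of effects (adjusted p = 0.0852 at the brighter and 0.098 at the second probe set, with blocks at both ages). No label says what the numbers mark. In the neonates, whose numbers were taken to pair hearts, the block changed no call of a member. The second probe set lost its adult call with quantile normalization (adjusted p = 0.0663). Of the 7 members tested, 2 passed in adults with all 12 arrays in 1 fit, 2 with array weights, 0 with the replicate block and 0 to 1 without 1 heart. For the difference of effects 2 passed with array weights (Pkia also, adjusted p = 0.0466) and 0 with the replicate block. For age in DN-MCU hearts 5 passed with array weights and 3 to 5 without 1 heart, the most without DN-MCU adult 3. Over all probe sets, adult calls numbered 74 with no filter, 1152 with 12 arrays, 2036 with array weights, 16 with the replicate block and 17 to 175 without 1 heart (112 as reported). Neonatal calls numbered 2 with array medians subtracted, 0 with no filter, 2 with the stricter filter, 4 with 12 arrays, 95 with array weights, 0 with the replicate block and 0 to 3 without 1 heart. Calls for the difference of effects numbered 1216 with array weights, 39 with the replicate block, 71 with the block on neonates alone and 70 to 636 without 1 heart (190 as reported). Age calls in DN-MCU hearts numbered 13011 with array weights, 5314 with the mean of a gene's probe sets (fewer features) and 4543 to 12841 without 1 heart (8026 as reported). Directions turned only where the difference was not called. With the mean of a gene's probe sets these were Pde4b in neonates (-0.12) and in the difference of effects (0.081), Pde4d across age in WT (0.86) and DN-MCU hearts (0.64), and Adcy5 across age in DN-MCU hearts (0.051). With quantile normalization they were Pde4d (0.067) and Grk5 (0.083) across age in WT hearts and Adcy5 across age in DN-MCU hearts (0.055). With array medians subtracted they were Adcy6 across age in WT hearts (-0.11) and the second Grk5 probe set in neonates (0.011); this setting also moved the median of all probe sets across age to -0.197 in WT hearts (-0.0651 as reported) and to -0.215 in DN-MCU hearts (-0.0658). Without 1 heart, the ranges that span 0 were -0.017 to 0.093 for Adcy6 and -0.081 to 0.054 for the second Grk5 probe set in neonates, and -0.29 to 0.066 for Pde4d in the difference of effects. Across age in WT hearts they were -0.056 to 0.073 for Adcy6, -0.084 to 0.054 for Pde4d and -0.13 to 0.039 for Grk5, and in DN-MCU hearts -0.26 to 0.041 for Adcy5 and -0.31 to 0.045 for Pde4d. The cause was not tested for any of these. Signals under log2 3.355 are close to background, which limits Pde3a, and Adra1b in adults.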

Other observations

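Of the 4 tested genes of catecholamine synthesis and clearance, Ddc had the widest range over age. It read 5.23, 5.45 and 5.11 in DN-MCU adults, against 12.15, 11.79 and 12.20 in DN-MCU neonates, and 7.78, 7.06 and 6.47 in WT adults, against 12.28, 11.47 and 12.27 in WT neonates. It fell in adults of both genotypes, by a log2 difference of -6.79 (SE 0.19, limma adjusted p = 2.65e-05) in DN-MCU hearts and -4.90 (SE 0.38, adjusted p = 0.000154) in WT hearts. Dbh, the next enzyme of that path, was 4.98 ± 0.40 in DN-MCU adults and 5.11 ± 0.29 in DN-MCU neonates (-0.13, SE 0.27, adjusted p = 0.721). In WT hearts it rose to 6.62 ± 0.14 in adults, against 5.28 ± 0.26 in neonates (SD, n = 3 each; 1.34, SE 0.17, adjusted p = 0.000955). The differences between these age effects did not pass for Ddc (-1.88, SE 0.45, adjusted p = 0.12) or Dbh (-1.47, SE 0.32, adjusted p = 0.0789).

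Among the 13 tested PKA substrates and phosphatase regulators, 4 were higher and 2 lower in DN-MCU adults than in DN-MCU neonates, and 7 were higher and 3 lower in WT adults than in WT neonates. Of the 13 G protein subunits, 2 were higher and 4 lower in DN-MCU adults, and 2 were higher and 7 lower in WT adults, each set against its neonates. Of all genes, 12.7% were higher and 20.8% lower in DN-MCU adults, and 19.8% were higher and 32.4% lower in WT adults.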
